A study of Mus musculus with 9 samples.

Results

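A set of 40 skeletal muscle genes was followed through mouse skin, in a comparison of healthy skin with skin given bleomycin and with skin given bleomycin and nitrate. The 40 members were taken from a table of 54532 genes by a list of symbols. They build the contractile unit of the muscle fibre (the sarcomere), release and clear the calcium that triggers contraction, and supply the fibre with energy. By role they fall into 5 groups, with 11 genes of the thick filament and M-band, 8 of the thin filament, 10 of titin, the Z-disc and the costamere, 6 of excitation-contraction coupling and calcium handling, and 5 of energy metabolism. All 40 were found in the table.

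Skin of wild-type mice (genotype WT) was sequenced in 9 libraries, 3 in each of 3 groups labelled ctrl, Blm and Blm_nit, here called control, bleomycin and nitrate. Control mice were healthy, bleomycin mice received bleomycin (BLM), an antibiotic that damages DNA and is used to bring about skin fibrosis as a model of systemic sclerosis, and nitrate mice received bleomycin together with nitrate, which the study's title describes as topical. Every nitrate library therefore also carries bleomycin, and no group received nitrate alone. The sources used here do not give doses, times, strain, sex, age, body site or the number of animals. The p-values therefore reflect the spread between libraries only, which may be technical.

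Skeletal muscle fibres contract when myosin of the thick filament pulls on actin of the thin filament. Fast and slow fibres build the same machine from different genes, with their own myosin heavy chains, troponins and calcium-handling proteins, and the heavy chain genes Myh4, Myh1, Myh2 and Myh7 mark types 2B, 2X, 2A and slow in that order. In the mouse a thin sheet of skeletal muscle, the panniculus carnosus, lies beneath the dermis and the fat of the skin. The labels do not say how deep the biopsies reached.

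Muscle genes were among the most abundant transcripts of the control skin and took a share of the reads that differed widely within the treated groups. Recovered reads numbered 15804050 to 18352592 per library. Of these the 40 genes held 5.58%, 7.16% and 4.97% in controls 1 to 3, 5.21%, 1.28% and 2.56% in bleomycin libraries 1 to 3, and 1.22%, 4.44% and 0.886% in nitrate libraries 1 to 3. Exact Clopper-Pearson 95% intervals, which cover counting error only, were narrow, the widest running from 7.15% to 7.17%. Bleomycin 1 lay within the control range, and nitrate 2 lay just below it, while the other 4 treated libraries held 0.886% to 2.56%. The control group averaged 5.91 ± 1.13% (SD, n = 3), the bleomycin group 3.02 ± 2.0% and the nitrate group 2.18 ± 1.96%. In bulk tissue, fewer muscle cells and less RNA per muscle cell cannot be told apart.

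**Figure D1:**
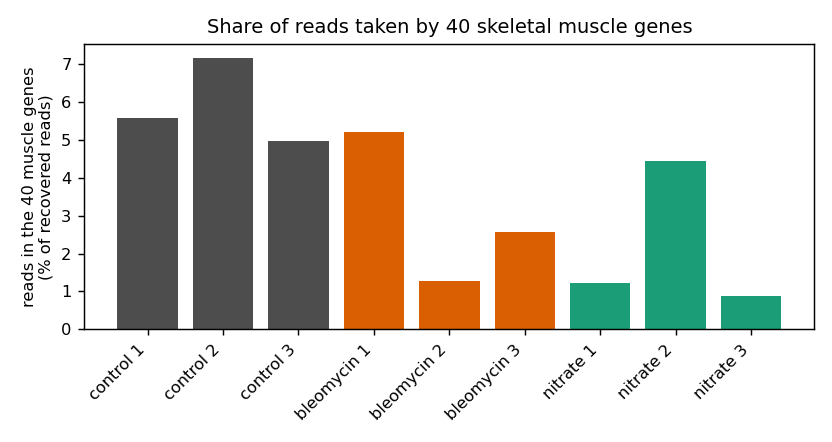
Share of each library's recovered reads, in percent, that fell on the 40 skeletal muscle genes, with 1 bar per library coloured by group. Bleomycin 1 (5.21%) and nitrate 2 (4.44%) stand close to the controls (4.97% to 7.16%), and the other 4 treated libraries lie between 0.886% and 2.56%.

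Among the 100 genes with the highest FPKM, the controls had 13, 18 and 14 of the 40, the bleomycin libraries 13, 2 and 6, and the nitrate libraries 1, 11 and 1. FPKM is a fragment count scaled by gene length and library depth, so that levels of genes of different length can be compared. The libraries also differed outside the 40 genes. The mitochondrial share of reads was 7.48 ± 0.763% for control (SD, n = 3), against 3.91 ± 0.222% for bleomycin and 3.81 ± 0.860% for nitrate. Summed FPKM of 15 growing hair follicle markers ranged from 33.3 to 2534 in control, from 57.6 to 4151 in bleomycin and from 2134 to 13464 in nitrate. Control 1 and bleomycin 1 were the lowest of all libraries in these markers. What part hair follicle content had in the muscle values was not tested.

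Of the 40 genes, 39 passed the filter (FPKM of 1 or more in 3 or more libraries) and entered the test, which limma ran on log2(FPKM + 1) over 14645 genes. Differences below are on that log2 scale with their standard error, and the added 1 makes them smaller than the true change for genes of low level. A gene was called when its Benjamini-Hochberg adjusted p lay under 0.05 over all 14645 genes.

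In bleomycin skin 34 of the 39 estimates lay below control and 5 above, with a median of -1.17 against 0.01 over all genes tested. Across all genes 48.4% of estimates lay below 0. None of the 39 was called by limma, beside 8.43% of all genes (4.74% higher and 3.69% lower), and 12 of the 39, or 30.8%, had an unadjusted p under 0.05, which is near the 26.9% of all genes. Voom on the recovered reads called none either. The lowest adjusted p was 0.0549, that of Myh4. In 19 members every bleomycin library lay below every control library, beside 17.3% of all genes, and in 2 members, Myh7 and Tnnc1, every one lay above, beside 18.4%. With a library left out, 1 member was called lower without bleomycin 1 (1.54% of all genes), 1 higher and 2 lower without nitrate 2 (5.43% and 5.08%), and 1 higher without nitrate 3 (5.5%). The member called higher was Myh7 both times. No control library reached 1 FPKM for Myh7, so it entered the test only through treated libraries, and these calls are not support.

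In skin given bleomycin and nitrate 35 of 39 estimates lay below control, beside 48.1% of all genes, with a median of -1.81 against 0.02. Limma called 5 members, all lower, which are Myh4, Actn3, Casq1, Pvalb and Smpx, or 12.8% of those tested, beside 4.9% of all genes called lower. No member was called higher, beside 3.63%, and calls in either direction came to 8.53% of all genes. With those 5, 24 members, or 61.5%, had an unadjusted p under 0.05, beside 31.5% of all genes. In 20 members the groups did not overlap with nitrate lower, beside 17.5% of all genes, and in 1, Myh7, with nitrate higher, beside 17.3%.

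The count of 5 rested on which libraries were present. Without nitrate 2, 31 of the 39 were called lower, beside 10.9% of all genes called lower. Without control 1, control 2 or nitrate 3 none was called, beside 0.567%, 0.307% and 1.16% of all genes, with 17, 15 and 13 members at an unadjusted p under 0.05 (43.6%, 38.5% and 33.3%, beside 24%, 20.7% and 21.3% of all genes). Without control 3, nitrate 1 or bleomycin 3 only 1 was called, lower, a share of 2.56% beside 2.38%, 2.16% and 2.64% of all genes called lower.

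In nitrate against bleomycin 39 of 39 estimates lay below 0, beside 50.4% of all genes, with a median of -0.65. No member was called by limma or by voom, beside 0.0% of all genes in limma, and no member had an unadjusted p under 0.05, against 2624 of the 14645 genes, or 17.9%. The lowest adjusted p of a member was 0.282, again Myh4, and in no member did the groups separate, beside 9.4% of all genes with nitrate higher and 11.8% with nitrate lower. Without bleomycin 1, 28 estimates lay below 0 and 11 above, with a median of -0.17. Without nitrate 3 these counts were 30 and 9, and without nitrate 1 they were 35 and 4. The 3 comparisons share libraries, so their estimates are not independent of each other. Most members also rose and fell together between libraries, so a count of members is not a count of independent results.

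**Figure D2:**
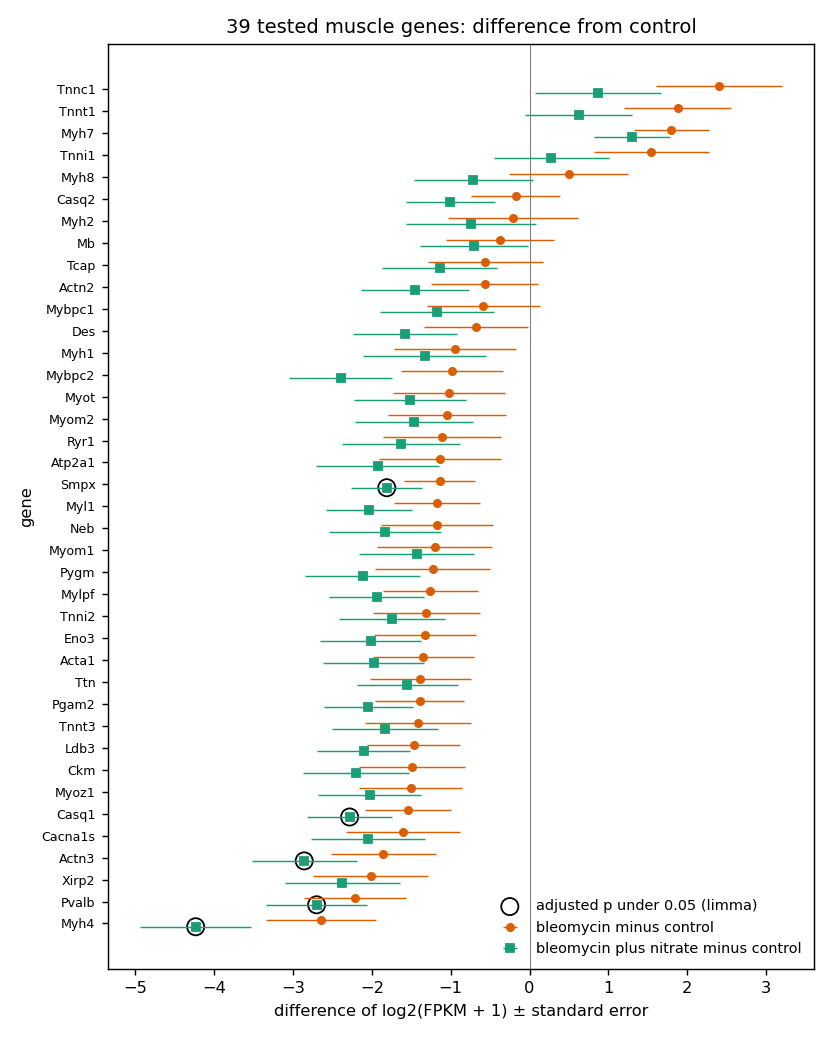
Difference from control on the log2(FPKM + 1) scale for the 39 tested genes, with circles for bleomycin, squares for nitrate and bars for the standard error from limma. Black rings mark the 5 called genes, Myh4 lies lowest at -4.23 in nitrate, and Tnnc1, Tnnt1, Myh7 and Tnni1 lie above 0 in both comparisons.

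The thick filament is built of myosin, whose heavy chain carries the motor. Myh4 encodes the heavy chain of the fastest fibres, type 2B. Its FPKM was 689, 1808 and 751 in controls 1 to 3, 517, 66.5 and 109 in the bleomycin libraries and 44.4, 44.5 and 67.3 in the nitrate libraries, in the order of their numbers as for all genes below. Neither treated group overlapped control, and the 3 nitrate libraries lay close together although nitrate 2 held much more muscle RNA than the other two. The estimate was -2.64 ± 0.70 in bleomycin (adjusted p = 0.0549, limma), which did not pass. In nitrate against control Myh4 fell by 4.23 ± 0.70 (adjusted p = 0.0176, limma).

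Myh1 encodes the 2X heavy chain and lies beside Myh4 on chromosome 11. Control libraries held 1002, 631 and 686 FPKM, bleomycin libraries 811, 215 and 348, and nitrate libraries 199, 1093 and 125. The groups overlapped, and nitrate 2 was the highest library of all (nitrate against control -1.33 ± 0.78, adjusted p = 0.270, limma). Myh2, the 2A heavy chain, was likewise highest in nitrate 2, with 94.7, 117 and 66.4 FPKM in control, 162, 31.5 and 93.0 in bleomycin and 34.6, 198 and 22.2 in nitrate. Its groups overlapped too, and its means of 92.8 ± 25.5, 95.5 ± 65.3 and 85.0 ± 98.2 differed by less than the spread (SD, n = 3).

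Myh8 encodes the heavy chain of muscle around birth and was low, at 5.47, 20.9 and 8.28 FPKM in control, 22.5, 7.20 and 18.1 in bleomycin and 15.6, 6.84 and 1.29 in nitrate, with overlap between all groups. Myh7 encodes the heavy chain of slow fibres and of the heart ventricle. Its level was 0.0152, 0.152 and 0.0734 FPKM in control, from 2, 22 and 11 reads, against 1.48, 1.96 and 6.21 in bleomycin and 1.19, 4.07 and 0.677 in nitrate. Every treated library lay above every control. The estimate for bleomycin was 1.80 ± 0.48 (adjusted p = 0.0554) and that for nitrate 1.30 ± 0.48 (adjusted p = 0.113, limma), and neither passed. No control library reached 1 FPKM, so Myh7 entered the test only through the groups where it was high.

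As shares of the summed FPKM of these 5 genes, the heavy chains can be set beside each other within a library, as far as they come from muscle alone. Reads could have been split between them in counting, since 18.9% of the 50-base windows of Myh4 and 25.4% of those of Myh1 also occur in another gene. Myh4 made up 38.5%, 70.2% and 49.7% in control, 34.1%, 20.7% and 19.0% in bleomycin and 15.1%, 3.30% and 31.1% in nitrate. Both treated groups lay below control in every library, also bleomycin 1 and nitrate 2. The share of Myh2 was 4.74 ± 0.479% in control, 12.2 ± 3.47% in bleomycin (SD, n = 3) and 12.2 ± 2.27% in nitrate, without overlap between control and either. Myh1 held 41.9 ± 16.0%, 60.3 ± 6.57% and 68.8 ± 11.8%, which separated nitrate from control and not bleomycin. Myh8 separated bleomycin (2.29 ± 0.834%) from control (0.554 ± 0.252%), and nitrate overlapped both. These shares are a description and were not tested, and the smallest two-sided p that an exact permutation test of 3 against 3 libraries can give is 0.1.

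**Figure D3:**
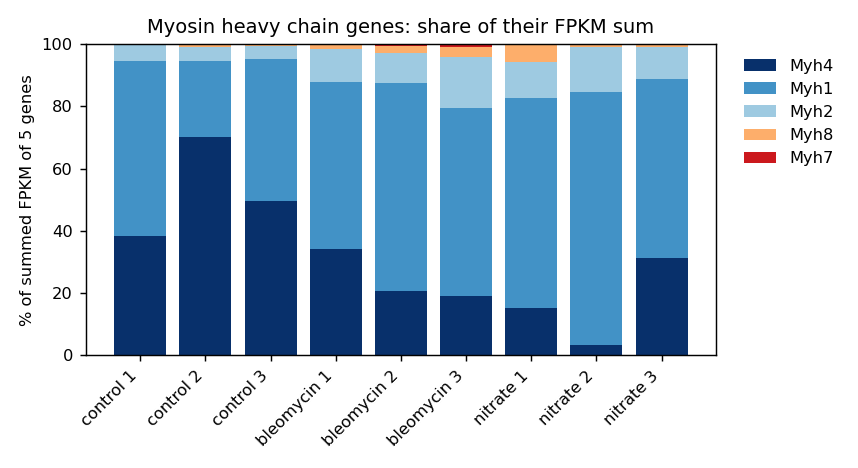
Share of each of 5 myosin heavy chain genes in their summed FPKM, in percent, stacked to 100 for each library. Myh4 takes 38.5% to 70.2% in control and 3.30% to 34.1% in the treated libraries, where Myh1 and Myh2 take the larger part.

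On chromosome 11 the genes Myh2, Myh1, Myh4 and Myh8 follow each other on the plus strand. Myh4 spans chr11:67238029-67260446 and Myh1 chr11:67200052-67224575 (GRCm38). The 250 bases before a transcript start are shown for Myh4, which nitrate libraries held at a lower level than controls, for its neighbour Myh1, which overlapped, for Acta1, the most abundant member, and for Tnnc1, the member with the largest positive estimate. The sequences end at the transcript starts of RefSeq (GRCm38.p6), which are not the gene starts above: the RefSeq start lies before the listed start for Myh4 and after it for Myh1. They are at chr11:67237562-67237811 plus for Myh4, chr11:67199852-67200101 plus for Myh1, chr8:123894776-123895025 minus for Acta1 and chr14:31208062-31208311 plus for Tnnc1. Capitals mark letters of 3 motifs, the E-box CANNTG, to which myogenic regulators can bind, and the MEF2 and CArG motifs, named for the factor MEF2 and for the site of serum response factor.
Myh4: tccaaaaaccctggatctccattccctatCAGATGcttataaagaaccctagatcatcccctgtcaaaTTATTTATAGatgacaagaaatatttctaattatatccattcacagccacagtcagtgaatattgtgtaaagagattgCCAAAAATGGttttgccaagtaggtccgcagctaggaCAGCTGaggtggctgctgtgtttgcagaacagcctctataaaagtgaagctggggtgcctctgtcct
Myh1: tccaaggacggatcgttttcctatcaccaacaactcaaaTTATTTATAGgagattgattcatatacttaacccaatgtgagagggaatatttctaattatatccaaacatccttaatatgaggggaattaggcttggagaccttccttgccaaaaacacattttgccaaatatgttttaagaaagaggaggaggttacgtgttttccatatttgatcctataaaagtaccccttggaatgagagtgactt
Acta1: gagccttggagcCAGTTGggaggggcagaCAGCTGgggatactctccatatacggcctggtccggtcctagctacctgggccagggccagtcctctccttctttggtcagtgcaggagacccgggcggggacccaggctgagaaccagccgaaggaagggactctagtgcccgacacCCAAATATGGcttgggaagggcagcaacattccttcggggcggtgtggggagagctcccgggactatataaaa
Tnnc1: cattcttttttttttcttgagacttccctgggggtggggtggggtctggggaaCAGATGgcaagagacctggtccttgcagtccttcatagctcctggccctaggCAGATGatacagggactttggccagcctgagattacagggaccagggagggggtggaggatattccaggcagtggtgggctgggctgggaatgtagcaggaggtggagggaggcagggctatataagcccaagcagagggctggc

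Counted back from the RefSeq transcript start, the MEF2 letters begin at -182 in Myh4 and at -211 in Myh1, and in both the 10 letters are the same and overlap a TATAAA read on the other strand. CArG letters begin at -104 in Myh4 and at -73 in Acta1 and were not in the windows of Myh1 or Tnnc1. Promoters of 32 of the 40 genes were matched, 38 in all, since some genes have several starts. With both strands searched, MEF2 letters were in 21.1% of the 38 and in 2.92% of 32851 promoters of the same length, CArG letters in 13.2% and 1.47%, and E-box letters in 81.6% and 66.2%. Several windows of a gene can hold the same letters, as the 2 overlapping windows of Ldb3 do for CArG. Counted by gene, MEF2 letters were in 8 of the 32 genes, CArG letters in 4 and E-box letters in 27. A match describes letters and is not evidence of binding.

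The other thick filament members were 2 light chains, 2 myosin-binding proteins and 2 myomesins of the M-band. Myl1, an essential light chain of fast fibres, held 795, 1383 and 855 FPKM in control, 754, 205 and 529.7 in bleomycin and 230.0, 433 and 134 in nitrate. Mylpf, the regulatory light chain of fast fibres, held 1377, 2034 and 1281 in control, 1111, 292 and 805 in bleomycin and 332, 884 and 216 in nitrate. Every treated library lay below every control for both light chains, and neither passed limma (nitrate against control -2.04 ± 0.55, adjusted p = 0.0550 for Myl1 and -1.94 ± 0.60, adjusted p = 0.0762 for Mylpf).

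Mybpc2 and Mybpc1 encode myosin-binding protein C of fast and slow fibres. Mybpc2 stood at 212, 396 and 216 FPKM in control, 319, 65.2 and 111 in bleomycin and 32.1, 113 and 32.6 in nitrate. Mybpc1 stood at 180.4, 159 and 156 in control, 213, 50.1 and 122 in bleomycin and 52.5, 227 and 31.7 in nitrate. The fast form separated nitrate from control (-2.39 ± 0.65, adjusted p = 0.0566, limma) without passing, and the slow form overlapped in all comparisons. Myom1 and Myom2, which cross-link the thick filaments at the M-band, ranged from 6.86 to 63.2 FPKM and were not called.

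The thin filament is actin with its calcium switch, troponin, made of the subunits T, I and C. Acta1, skeletal alpha-actin, was the most abundant member, with 8828, 10072 and 7292 FPKM in control, 6933, 1542 and 3679 in bleomycin and 1776, 5173 and 1155 in nitrate. It was among the 5 highest genes of the table in every control library. It stood at rank 3, 13 and 5 in bleomycin 1, 2 and 3 and at rank 14, 5 and 23 in nitrate 1, 2 and 3. No treated library reached the lowest control, yet the difference of nitrate from control, -1.98 ± 0.64, did not pass limma (adjusted p = 0.0826).

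Among the troponins the fast genes had estimates below control and the slow genes estimates above it in bleomycin skin. The fast troponin T gene Tnnt3 held 1314, 1615 and 1220.0 FPKM in control, 1046, 243 and 539 in bleomycin and 220.3, 1069 and 241 in nitrate. For Tnni2, the fast troponin I, control held 827, 1002 and 774, bleomycin 664, 167 and 379 and nitrate 140.4, 749 and 161. Both fast genes lay below control in all treated libraries, and neither was called (adjusted p of 0.220 and 0.256 in bleomycin and 0.110 and 0.125 in nitrate, limma).

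Their slow partners were low in control. Tnnt1, the slow troponin T, held 3.26, 15.9 and 5.79 FPKM in control, 41.3, 13.0 and 40.5 in bleomycin and 15.3, 19.1 and 4.46 in nitrate. Tnni1, the slow troponin I, held 2.58, 13.5 and 4.12 in control, 20.8, 8.18 and 32.1 in bleomycin and 17.4, 6.05 and 2.64 in nitrate. Tnnc1, the troponin C of slow fibres and heart, held 1.01, 12.0 and 4.25 in control, 28.2, 12.8 and 49.6 in bleomycin and 14.9, 12.6 and 2.88 in nitrate. Control 2 was the highest control for all 3 genes, and bleomycin 3 or bleomycin 1 was the highest library. Of the 3, Tnnc1 alone separated bleomycin from control, by 12.8 against 12.0 at the nearest. The estimates of 2.41 ± 0.80 for Tnnc1, 1.88 ± 0.68 for Tnnt1 and 1.55 ± 0.73 for Tnni1 did not pass limma (adjusted p = 0.104, 0.124 and 0.219).

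Tnnc2, the troponin C of fast fibres, was the 1 member left out of the test. It was counted with 4 reads over all 9 libraries, at 0 in the 6 control and bleomycin libraries and 1, 1 and 2 in nitrate, in the same libraries where fast troponin T and I stood at 140.4 to 1615 FPKM. Of its 800 exonic bases, 74.0% overlap exons of Ube2c, a cell-cycle gene read from the opposite strand, to which 3195 reads were counted. No source used here says whether the counting used strand, and the listed level of Tnnc2 cannot be taken as its expression. Nebulin, encoded by Neb and running along the thin filament, ranged from 7.50 to 93.3 FPKM and was not called.

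**Figure D4:**
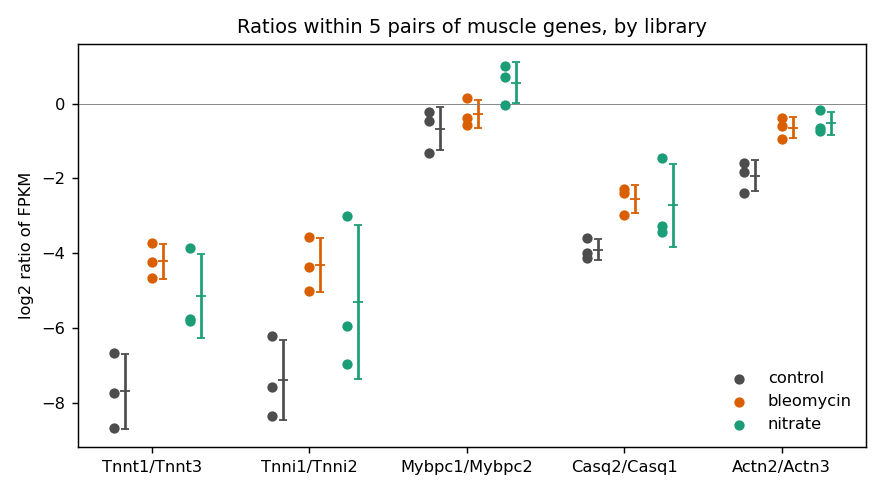
Log2 ratio of FPKM within 5 pairs of related muscle genes, with 1 point per library and, beside them, the mean and SD of 3 libraries. Every bleomycin point lies above every control point for Tnnt1/Tnnt3, Tnni1/Tnni2, Casq2/Casq1 and Actn2/Actn3.

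Ratios between members set aside the amount of muscle in a library where both genes come from muscle alone, and whether other skin cells add to the low slow forms was not tested. The log2 ratio of slow to fast troponin T, Tnnt1 to Tnnt3, was -7.68 ± 0.995 in control, -4.21 ± 0.466 in bleomycin (SD, n = 3) and -5.14 ± 1.11 in nitrate, and neither treated group overlapped control (exact permutation p = 0.1 each, two-sided, the smallest possible). For troponin I, Tnni1 to Tnni2, it was -7.36 ± 1.07, -4.30 ± 0.719 and -5.30 ± 2.04, and nitrate overlapped control there (exact permutation p = 0.2). The highest ratio of slow to fast in any library was 0.0753 for troponin T, in bleomycin 3, and 0.124 for troponin I, in nitrate 1. The fast form was thus the more abundant in all 9 libraries.

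The same direction was seen in pairs outside the troponins. Actn2, an alpha-actinin of all fibres, rather than Actn3, that of fast fibres, gave a log2 ratio of -1.93 ± 0.418 in control, -0.64 ± 0.290 in bleomycin and -0.52 ± 0.308 in nitrate (SD, n = 3). Casq2 to Casq1, the slow and heart calsequestrin to the fast one, gave -3.90 ± 0.280, -2.54 ± 0.370 and -2.71 ± 1.10. Both ratios lay higher in every treated library than in every control (exact permutation p = 0.1 in each). Mybpc1 to Mybpc2 overlapped between bleomycin and control and was higher in nitrate than in control. Between nitrate and bleomycin the 5 ratios overlapped (exact permutation p from 0.2 to 0.8).

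Further ratios were picked after the values were seen. Mb to Ckm, or myoglobin to creatine kinase, was -2.10 ± 0.166 in control, -0.98 ± 0.309 in bleomycin and -0.60 ± 0.139 in nitrate (SD, n = 3), with both treated groups above control. Pvalb to Atp2a1, both of calcium clearance in fast fibres, was lower in every bleomycin library than in every control, at -1.90 ± 0.299 against -0.82 ± 0.0728, while nitrate overlapped control at -1.60 ± 0.741. Ckm to Acta1, at -3.41 ± 0.245, -3.55 ± 0.0743 and -3.64 ± 0.318, and Ttn to Acta1 overlapped between all groups. Tcap to Acta1 was higher in every bleomycin library than in every control, at -4.09 ± 0.243 against -4.87 ± 0.142. Nitrate overlapped control there, at -4.05 ± 0.738. Myh1, Myh2 and Myh7, each to Myh4, lay higher in every treated library than in every control, where Myh7 had few reads.

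Titin, the Z-disc and the costamere anchor the filaments and pass force to the membrane. All 10 estimates lay below control in both treated groups, with medians of -1.26 in bleomycin and -1.69 in nitrate. Actn3, which cross-links thin filaments at the Z-disc of fast fibres, held 586, 943 and 536 FPKM in control, 421, 84.8 and 173 in bleomycin and 92.9, 195 and 41.4 in nitrate. Every treated library lay below every control. In nitrate against control Actn3 fell by 2.86 ± 0.66 (adjusted p = 0.0383, limma), and its bleomycin estimate of -1.85 ± 0.66 did not pass (adjusted p = 0.122, limma).

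Its partner Actn2 held 197, 180.1 and 152 FPKM in control, 217, 56.2 and 133 in bleomycin and 58.6, 174 and 24.9 in nitrate, with overlap throughout. Smpx encodes a small costamere protein of striated muscle. Its levels were 49.2, 55.3 and 42.0 in control, 33.6, 12.9 and 22.7 in bleomycin and 12.2, 25.7 and 6.95 in nitrate, again without overlap with control. Smpx fell by 1.81 ± 0.45 in nitrate (adjusted p = 0.0457, limma).

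Des, the intermediate filament desmin that ties Z-discs together, held 743, 681 and 533 FPKM in control, 761, 195 and 446 in bleomycin and 195, 551 and 93.0 in nitrate. Tcap, telethonin, which caps titin at the Z-disc, held 269.7, 372 and 256 in control, 344, 90.1 and 256 in bleomycin and 59.6, 427 and 92.7 in nitrate. Bleomycin 1 and nitrate 2 were as high as controls in both, and neither gene was called. Ttn, Myoz1, Myot, Ldb3 and Xirp2, which encode titin and proteins that bind at the Z-disc or to actin, ranged from 2.0 to 270.5 FPKM and were not called. All 5 were below control in every bleomycin library, and in nitrate 3 were, while Ttn and Myot overlapped control through nitrate 2.

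**Figure D5:**
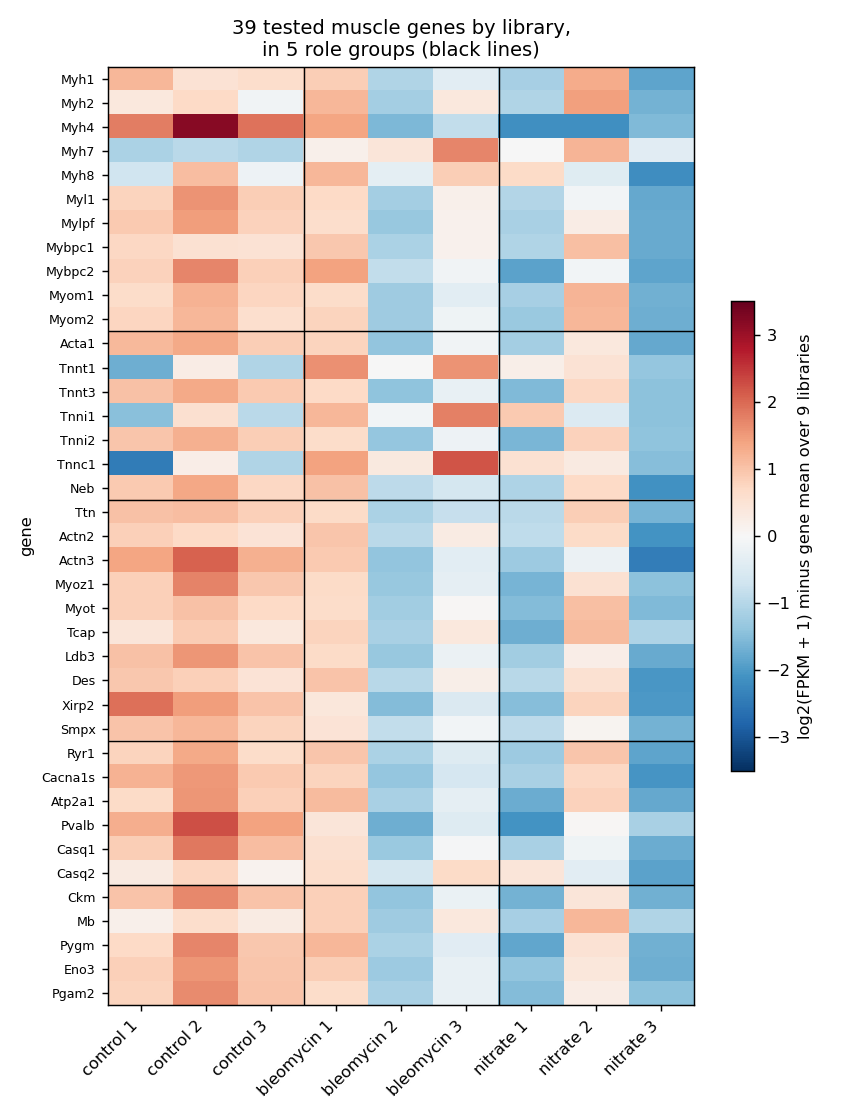
Level of the 39 tested genes in each library, as log2(FPKM + 1) minus the gene's mean over the 9 libraries, with role groups divided by black lines. Most genes are high in the controls, bleomycin 1 and nitrate 2 and low in bleomycin 2, nitrate 1 and nitrate 3, while Myh4 is low in nitrate 2 and Tnnt1, Tnni1 and Tnnc1 are high in bleomycin 1 and 3.

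Of the genes of excitation-contraction coupling and calcium, 2 of 6 were called lower in nitrate against control, beside 4.9% of all genes. Pvalb encodes parvalbumin, a cytosolic calcium buffer of fast fibres. It held 682, 1363 and 749.7 FPKM in control, 381, 87.1 and 208 in bleomycin and 66.2, 292 and 129 in nitrate. Every treated library lay below every control. Pvalb fell by 2.70 ± 0.64 in nitrate (adjusted p = 0.0407), and the bleomycin estimate of -2.21 ± 0.64 did not pass (adjusted p = 0.0709, limma).

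Casq1, calsequestrin of the fast fibre's calcium store, held 255, 506 and 297 FPKM in control, 205, 55.5 and 134 in bleomycin and 62.3, 125 and 41.3 in nitrate. It too separated both treated groups from control, and it fell by 2.28 ± 0.54 in nitrate (adjusted p = 0.0404, limma). Casq2 held 21.2, 29.0 and 18.6 in control, 26.3, 10.7 and 27.6 in bleomycin and 23.0, 12.9 and 3.86 in nitrate, with overlap in all comparisons.

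Atp2a1, the calcium pump SERCA1 of fast fibres, held 1235, 2266 and 1363 FPKM in control, 1668, 351 and 615 in bleomycin and 232, 1352 and 220.0 in nitrate. Bleomycin 1 and nitrate 2 lay within the control range, and Atp2a1 was not called. Of its exonic bases 21.9% overlap Rabep2 on the other strand. Ryr1, the calcium release channel, and Cacna1s, the voltage sensor that opens it, ranged from 4.71 to 73.1 FPKM and were not called.

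No energy metabolism member was called, although all 5 estimates lay below control in both treated groups. Ckm, muscle creatine kinase, held 696, 1113 and 702 FPKM in control, 617, 134 and 297 in bleomycin and 111, 464 and 107 in nitrate. Eno3, muscle enolase, held 616, 1015 and 676 in control, 635, 143 and 291 in bleomycin and 132, 452 and 105 in nitrate. Pgam2, muscle phosphoglycerate mutase, held 363, 659 and 423 in control, 329, 94.8 and 176 in bleomycin and 72.8, 250.3 and 77.4 in nitrate. For all 3 the nitrate libraries lay below every control, with adjusted p of 0.0733, 0.0809 and 0.0595 (limma). Pygm, which breaks down glycogen, separated nitrate from control, and Mb, the oxygen store myoglobin, overlapped in all comparisons, with estimates of -0.37 ± 0.69 in bleomycin and -0.70 ± 0.69 in nitrate. Of their exonic bases, 31.9% for Mb and 15.5% for Ckm overlap antisense genes, from which unstranded counting could not tell them apart.

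Read by fibre type, the 13 tested genes typical of fast fibres all lay below control in bleomycin, with a median of -1.31, and 4 of the 6 typical of slow fibres lay above, with a median of 1.67. Among these 4 is Myh7, which entered the test only through treated libraries, and without it 3 of 5 lay above, with a median of 1.55. None of the 19 was called there, beside 8.43% of all genes. In nitrate against control the medians were -2.03, with 4 of 13 called lower beside 4.9% of all genes, and 0.45, or 0.28 without Myh7, with none of 6 called beside 8.53%. From bleomycin to nitrate both groups of genes lay lower, at -0.68 and -1.05, with none called.

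Other muscle genes were read from lists drawn up for this tissue, and their counts stand beside 4.74% of all genes called higher and 3.69% called lower in bleomycin, and 3.63% and 4.9% in nitrate against control. Of 36 tested further sarcomere genes, 1 was called lower in bleomycin and 1 in nitrate against control, with medians of -0.87 and -1.50. This was Mylk4, a myosin light chain kinase family gene, which fell by 3.08 ± 0.50 in bleomycin (adjusted p = 0.0116) and fell by 2.83 ± 0.50 in nitrate (adjusted p = 0.0201, limma). It averaged 19.3 ± 8.35 FPKM in control, 1.43 ± 1.09 in bleomycin and 2.11 ± 2.12 in nitrate (SD, n = 3). Myl3, a light chain of slow fibres and heart, lay higher in every bleomycin library than in control, at 1.83 ± 0.952 against 0.127 ± 0.0610 FPKM, and did not pass (adjusted p = 0.0873, limma). Like Myh7, it reached 1 FPKM in no control library and entered the test only through the treated ones.

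Of 36 genes of the triad, the membrane and the nerve-muscle junction, 1 was called higher and 1 lower in bleomycin, and 5 lower in nitrate against control. Mstn, which encodes myostatin, a secreted brake on muscle growth, fell by 3.22 ± 0.60 in bleomycin (adjusted p = 0.0174) and fell by 3.51 ± 0.60 in nitrate (adjusted p = 0.0188, limma). Its mean FPKM was 30.5 ± 13.7 in control, 3.09 ± 3.64 in bleomycin and 1.77 ± 1.17 in nitrate (SD, n = 3). Dysf, the membrane repair protein dysferlin, fell by 1.58 ± 0.25 in nitrate (adjusted p = 0.0163, limma). Atp2a2, the calcium pump of slow fibres, heart and many other cells, rose in bleomycin by 0.57 ± 0.14 (adjusted p = 0.0409, limma).

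Of 29 further energy genes 4 were called lower in bleomycin and 7 in nitrate against control. The calls with the smallest p were Gpd1, Ucp3 and Lpl in bleomycin and Pdk4, Ucp3 and Gpd1 in nitrate, and Gpd1 and Lpl are also expressed by fat. Ucp3, a mitochondrial carrier of muscle, fell by 1.42 ± 0.34 in bleomycin (adjusted p = 0.0381) and fell by 2.07 ± 0.34 in nitrate (adjusted p = 0.0172, limma). Among 18 satellite cell and myogenic genes none was called in bleomycin, and Myf6, a regulator of the mature fibre, fell by 2.01 ± 0.46 in nitrate (adjusted p = 0.0371, limma). Of 20 genes linked to atrophy and denervation, Ctsl, a lysosomal protease found in many cells, rose in bleomycin by 0.95 ± 0.15 (adjusted p = 0.0112) and in nitrate by 0.76 ± 0.15 (adjusted p = 0.0280), and Foxo1 fell in bleomycin by 0.50 ± 0.09 (adjusted p = 0.0165, limma). Between nitrate and bleomycin no gene of these lists was called.

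Markers of other cells also differed between the groups. All counts here are against control. Beside them stand 4.74% of all genes called higher and 3.69% called lower in bleomycin, and 3.63% and 4.9% in nitrate. Of 11 tested smooth muscle markers, 4 were called lower in bleomycin and 6 in nitrate, with summed FPKM of 383 to 431 in control, 208 to 267 in bleomycin and 166 to 239.7 in nitrate. Of 13 tested fat cell markers, 0 were called in bleomycin and 8 were called lower in nitrate, with sums of 2423 to 3434, 1261 to 1544 and 770.3 to 1269.7, and Ucp1 was at 0 in 7 libraries. Blood vessel markers had 3 and 6 of 10 called lower, fibroblast markers 3 and 3 of 10, and nerve markers 0 and 2 of 10. Epidermis markers had 3 of 10 called higher in bleomycin and 1 in nitrate. Growing hair follicle markers had 0 of 15 called, with 14 estimates above 0 in bleomycin (median 1.03) and 15 in nitrate (median 4.39). The part of these cells in the muscle values was not tested.

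Heart markers were low. Of 10 only 3 entered the test and none was called, and the summed FPKM was 25.1 to 51.5 in control, 14.9 to 67.6 in bleomycin and 7.48 to 23.2 in nitrate. Most of the control sums was Sln alone, at 26.4, 48.2 and 23.0 FPKM. Nppb was at 0.921, 0 and 0 in control and 19.4, 2.66 and 2.11 in bleomycin (adjusted p = 0.0655, limma). It entered the test only through treated libraries. Tnnt2 and Sln overlapped between bleomycin and control. Myh6, the heart heavy chain that shares sequence with Myh7, was at 0.146 FPKM or less in every library and at 0 in 2, and Nppa was at 0 in 5.

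Outside all lists, the 10 genes most like the members, by Pearson correlation over the 9 libraries of log2(FPKM + 1) with the mean of the 39, were Eef1a2 (r = 0.996), Dennd4b (0.994), Lbx1 (0.993), Fem1a (0.993), Mief2 (0.992), Nexn (0.992), 1110002E22Rik (0.991), Bves (0.986), Tmem182 (0.986) and Pkia (0.986). These values are a description, and the libraries share groups and muscle content. Eef1a2, a translation elongation factor of muscle and nerve, held 240.5, 395 and 267 FPKM in control, 299, 75.4 and 156 in bleomycin and 62.3, 249 and 46.4 in nitrate.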

How the data were processed

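The authors deposited 1 table of FPKM per gene and library for 9 libraries of mouse skin. Libraries were made from column-purified total RNA with the SMARTER mRNA-Seq kit, per the labels' protocols, and run on an Illumina NovaSeq, per the series' design text. The build was mm10, per the submitters' processing notes. The aligner, counter and strand setting are not given in the sources used here. Multiplied by gene length, FPKM gave whole multiples of the step of 1 read (within 0.01) for 99.97% to 99.996% of values per library, from which whole reads were recovered. A listed 0 allows up to 3 reads by counting error alone.

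Genes with FPKM of at least 1 in at least 3 libraries (14645) entered a two-sided limma 3.58.1 test (R 4.3.3) of log2(FPKM + 1), in 1 fit of 3 group means with trend and robust eBayes. Calls needed an adjusted p (Benjamini-Hochberg) under 0.05. Ratios were compared by exact permutation tests. Coordinates and overlaps are from GENCODE M21 (GRCm38), which held 99.9% of the table's gene IDs, 98.3% at the same start and end.

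Values per library are given for the 5 myosin heavy chains and both members of each fast and slow pair. They are also given for the 3 most abundant members of each role group and every called member. From other lists up to 3 genes with the smallest p are named, most by estimates or group means only. Mylk4, Myl3, Mstn, Dysf, Atp2a2, Myf6, Ucp3, Ctsl and Foxo1 come from that last rule. The members and lists were chosen with earlier results of these data known. Of the listed genes, Myozap, Murc and Adss1 were not found under those symbols. Alternatives were other pseudocounts, filters, scalings, fits, voom on recovered reads, and leaving out each library. Replicate numbers were not used as pairs.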

Additional observations from a re-analysis of the deposited data

How the results depend on the processing

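With 3 libraries a group, single libraries decided the counts of called genes. Called members numbered 0 to 3 in bleomycin against control, 0 each time in nitrate against bleomycin and 0 to 31 in nitrate against control when each library was left out in turn. Called genes ranged over 334 to 1539, 0 to 37 and 45 to 2882. For bleomycin against control, 2 members were called with only the groups compared in the fit. Of these 1 was higher and 1 lower, beside 5.81% and 5.04% of all genes called in those directions. At pseudocounts of 0.1 and 0.5, 1 was called higher, beside 4.55% and 4.73% of all genes. After quantile normalization 1 was called lower, beside 4.06%. With sample weights 1 was called higher and 2 lower, beside 7.03% and 6.26%. The member called higher was Myh7 each time, which entered the test only through treated libraries. Called genes there came to 747 with a mean FPKM of at least 5, 676 with no filter and 1947 with sample weights. For nitrate against control, called genes numbered 294 with no filter, 306 with only the groups compared and 2085 with sample weights, or 0.913%, 2.09% and 14.2% of those tested, and called members 1, 1 and 18. Whether the replicate numbers pair the libraries is not settled by these data. With group means removed, correlations of same-numbered libraries ran from -0.391 to 0.517, and not every library correlated best with its own number. With 3 libraries a group such correlations cannot exclude a pairing. With the replicate number as a block, called genes came to 1039, 10 and 1067 in the 3 comparisons, or 7.09%, 0.0683% and 7.29%. Called members came to 0, 0 and 1, where 1 member is 2.56% of those tested. Control 1 and bleomycin 1 held the least hair follicle RNA and were chosen after seeing the data. Leaving out both gave 137, 0 and 23 called genes in the 3 comparisons, or 0.935%, 0.0% and 0.157%. Called members there numbered 1, 0 and 1. The cause of these shifts was not tested, apart from the fewer libraries or genes that some of them use.

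For the 27 tested members with values per library, 522 of 539 estimates for bleomycin against control kept their direction and their side of the threshold, 528 of 539 for nitrate against bleomycin and 463 of 539 for nitrate against control. The called members were less stable than these pooled counts. In nitrate against control, over 20 alternative settings each, Pvalb lost its call in 11, Actn3, Casq1 and Smpx in 10 each, and Myh4 in 3. Estimates that changed sign were all uncalled. With libraries left out, the ranges that crossed 0 in nitrate against bleomycin were -1.31 to 0.25 for Myh1, -1.46 to 0.088 for Myh2, -1.16 to 0.087 for Tnnt3, -1.21 to 0.030 for Tnni2 and -1.05 to 0.024 for Pvalb. In bleomycin against control they were -0.73 to 0.44 for Myh2, -0.19 to 0.99 for Myh8, -0.41 to 0.25 for Casq2 and -1.02 to 0.0078 for Tcap, and in nitrate against control -1.37 to 0.060 for Myh8 and -0.34 to 0.86 for Tnni1. Without both control 1 and bleomycin 1 the reversed values were 0.14 for Myh1, 0.087 for Tnnt3, 0.030 for Tnni2 and 0.010 for Pvalb in nitrate against bleomycin, -0.19 for Myh8 in bleomycin against control and -0.15 for Tnni1 in nitrate against control.

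Heavy chain shares were also taken from recovered reads in place of FPKM, which gave 5.42% for Myh2 and 1.05% for Myh8 in control, 4.13% for Myh8 in bleomycin and 0.448% for Myh7 in nitrate, and left the others within 1 SD.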
